A study of Homo sapiens with 18 samples.

Results

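The genes described here are 10 genes of the Hippo pathway's transcriptional output and machinery: the matricellular CCN1, CCN2 and CCN3, the intracellular target genes ANKRD1, AJUBA and AMOTL2, the kinase gene LATS2, the coactivator gene YAP1, and the transcription factor genes TEAD1 and TEAD4. They were taken by name with all of their probe sets, which are 23 of the 54613 probe sets and 10 of the 19775 genes read by the array. The names were picked because of their level in each line under DMSO and their difference between A-485 and DMSO, so these 2 kinds of value are given below as descriptions with no test.

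The study measured RNA of SKMEL5, WM2664 and A375, which are 3 human melanoma cell lines, on Affymetrix HG-U133 Plus 2.0 arrays, to find genes that A-485 alters in lines that respond to it and in a line that resists it, and the labels do not say which line is which. A-485 is a drug-like inhibitor of the histone acetyltransferases p300 and CBP, in whose catalytic site it takes the place of acetyl-CoA, and the labels give its dose as 3 mM, a unit that could not be checked. Each line has 1 A-485 array and 2 DMSO (solvent) arrays at 6 h, and the same at 24 h, 18 arrays in all, from cells grown in RPMI medium with fetal bovine serum. All 3 lines are established BRAF-mutant lines, so the DMSO cells carry the mutation too.

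The Hippo pathway restrains tissue growth: the kinases MST1 and MST2 activate LATS1 and LATS2, which phosphorylate YAP and its relative TAZ (gene WWTR1) and keep them out of the nucleus. Unphosphorylated YAP and TAZ bind the TEAD factors on DNA and recruit coactivators, p300 and CBP among them, to genes such as CCN1, CCN2, ANKRD1, AMOTL2, AJUBA and LATS2, of which the last 3 feed back on the pathway. CCN proteins are secreted, bind integrins and heparan sulfate proteoglycans and act on adhesion and matrix production. In melanoma, high YAP and TEAD activity is known from invasive cells with low melanocytic differentiation.

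The promoters of CCN2 and ANKRD1, the textbook YAP-TEAD reporter genes, are shown because these genes lay far from DMSO in opposite directions with A-485 and both promoters hold the TEAD core motif more than once. Each is the 250 bases before the RefSeq start site (GRCh38.p14), read 5′ to 3′ on the gene's strand, with the TEAD core GGAATG in capitals. CCN2 lies at chr6:131951373-131951622 and ANKRD1 at chr10:90921088-90921337, both on the minus strand.
CCN2 promoter: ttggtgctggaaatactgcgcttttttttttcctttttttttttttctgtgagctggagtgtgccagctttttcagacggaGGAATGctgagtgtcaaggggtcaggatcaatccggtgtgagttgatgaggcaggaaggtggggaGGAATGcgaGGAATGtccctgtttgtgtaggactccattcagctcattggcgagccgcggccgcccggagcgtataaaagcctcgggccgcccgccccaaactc
ANKRD1 promoter: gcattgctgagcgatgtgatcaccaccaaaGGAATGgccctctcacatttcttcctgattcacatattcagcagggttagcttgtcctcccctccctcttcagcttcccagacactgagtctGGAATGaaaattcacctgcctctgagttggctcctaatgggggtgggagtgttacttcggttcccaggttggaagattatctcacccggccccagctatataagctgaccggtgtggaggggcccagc

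Letters matching GGAATG or its reverse complement CATTCC were searched on both strands of 35116 RefSeq promoters of 300 bases, 250 before and 50 after each start, and 14.0% of them held at least 1 match. CCN2 held 3 matches, at -169, -104 and -95 from the start, a number reached by 45 promoters (0.128%). ANKRD1 held 2, at -220 and -128, and 1.37% of promoters held at least 2. Promoter records were found for 6 of the 10 genes, with 8 start sites, and 6 of these promoters, 1 for each gene, held the motif. The others lay at -59 in AJUBA, -69 in AMOTL2, -162 in YAP1 and 10 bases past the start in LATS2. The CArG box, the site of serum response factor, matched in none of the 8, against 1.29% of all promoters. A match is a description of the letters, not of binding.

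Values are array intensities brought to 1 common distribution over the 18 arrays, raised to a floor of 32 where lower, and compared on the log2 scale. A gene is read by its brightest probe set, and a level is compared only between samples, never with another probe set. A lone A-485 array has no replicate, so each standard error (SE) rests on the spread of the DMSO pairs of all lines. The SE and p-value of a mean over lines thus leave out the spread between lines and that between A-485 samples. The labels do not say that the 2 DMSO samples of a group came from separate cultures, so every SE and p-value measures how far these samples differ, which may be technical only. RNA from bulk cells does not separate fewer cells with a transcript from less transcript per cell. Of the 23 probe sets, 21 passed the filter on dim values and were fitted; the remaining 2 are 1 of 4 for LATS2, at the floor on all 18 arrays, and 1 of 4 for AJUBA.

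The deposited intensities had array medians of 19.5 to 29.0, and 45.5% of probe sets lay above the floor. DMSO replicates correlated at 0.986 to 0.992 over probe sets. A set of 3 DMSO arrays had signal above the floor in probe sets that mark another line. In WM2664 at 6 h replicate 1 it was 6 of 6 probe sets that mark SKMEL5, at a median of 1.43% of their SKMEL5 level. In A375 at 6 h replicate 1 it was 63.2% of 19 that mark SKMEL5 (median 0.219% of SKMEL5). In WM2664 at 24 h replicate 2 it was 53.8% of 13 that mark A375 (median 0.211% of A375). Whether this signal is RNA of the other line was not tested. Results that rest on these 3 arrays are given without them where that matters. The melanocytic markers MLANA, PMEL, TYR, TYRP1, SOX10 and S100B were above the floor on every SKMEL5 and WM2664 array. In A375 MLANA, TYR and TYRP1 were at the floor on 5 of 6 arrays and S100B was at it on 4. PMEL (38.9 to 223) and SOX10 (113 to 913) were above it on all 6 A375 arrays. Their summed intensity was 34895 and 35156 with A-485 against 40261 to 42141 in DMSO in SKMEL5, 16523 and 21128 against 27182 to 29765 in WM2664, and 289.9 and 486 against 897 to 1483 in A375. Of 3 lists of 6 markers of other cell types, PTPRC and CD14 of leukocytes, EPCAM and KRT5 of epithelia, and PDGFRA and COL3A1 of fibroblasts were at the floor on all 18 arrays. Others were not: COL1A2 read 2639 to 5503 in WM2664, LUM 3511 to 4821 and CDH1 213 to 810 in SKMEL5, KRT14 86 to 336 in A375, HLA-DRA 755 to 1401 in WM2664, and KRT10 2161 to 4016 over the lines. COL1A1 read 81 to 147 over the lines and DCN 280 to 429 in SKMEL5. LUM read 83 to 304 and HLA-DRA 155 to 745 in A375.

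Under DMSO, CCN1, CCN2, AMOTL2, AJUBA, ANKRD1 and TEAD4 were highest in A375, while CCN3 was lowest there. Each line is read here over its 4 DMSO arrays, 2 at 6 h and 2 at 24 h, as lowest, median and highest. CCN1 (CYR61, probe set 201289_at), an integrin ligand of the matrix, read 2772, 3201 and 3417 in A375, against 107, 151 and 248 in SKMEL5 and 32, 41 and 45 in WM2664. The lines did not overlap: A375 was 20.1-fold above SKMEL5 and at least 79.6-fold above WM2664, whose arrays lay at or close to the floor.

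CCN2 (CTGF, 209101_at), which promotes matrix production downstream of YAP and of TGF-beta, read 1359.9, 1711 and 1926 in A375, against 475, 501 and 550.0 in SKMEL5 and 111, 168 and 216 in WM2664. Its order, A375 then SKMEL5 then WM2664, was the same as that of CCN1, with smaller distances of 3.29-fold between A375 and SKMEL5 and 3.14-fold between SKMEL5 and WM2664. CCN3 (NOV, 214321_at), a family member with growth-restraining activity in several cell types, melanocytes included, ran the other way. It read 94, 150.5 and 182 in A375, against 547, 736 and 957 in SKMEL5 and 1287, 1465 and 1623 in WM2664, with no overlap, and A375 was 10.4-fold below WM2664 and 5.19-fold below SKMEL5.

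AMOTL2, a junction scaffold that binds and sequesters YAP, read 1492, 1676 and 1779 in A375, against 163, 175 and 199 in SKMEL5 and 84, 129 and 149 in WM2664. AJUBA, a LIM protein that inhibits LATS kinases, read 2618, 2712 and 2839 in A375, against 223, 294 and 315 in SKMEL5 and 256, 262 and 290 in WM2664. For both genes A375 stood clear of the other lines, by 9.29-fold and 9.74-fold over SKMEL5, and SKMEL5 and WM2664 overlapped for AJUBA but not for AMOTL2. ANKRD1, a nuclear and sarcomeric ankyrin-repeat protein, read 122, 189 and 285 in A375 and was at the floor of 32 on all arrays of SKMEL5 and WM2664, so A375 was at least 5.88-fold higher.

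TEAD4, a DNA-binding partner of YAP, was also highest in A375, with 473, 554 and 584 against 118, 147 and 170 in SKMEL5 and 75, 101 and 124 in WM2664, of which the last 2 lines overlapped. The regulators themselves were spread less. YAP1 was highest in WM2664 (1763, 1918 and 1988), then A375 (1164, 1259.9 and 1376), then SKMEL5 (738, 777 and 888), without overlap. TEAD1 was lower in A375 (865, 905 and 981) than in SKMEL5 (1451, 1761 and 1973) and WM2664 (1422, 1505 and 1692), which overlapped. In its other probe sets A375 overlapped with WM2664, with A375 minus WM2664 at -0.22 in 214600_at and 0.09 in 1553322_s_at (log2). LATS2 was highest in SKMEL5 (964, 1009 and 1036), and A375 (436, 501 and 544) overlapped with WM2664 (437, 441 and 449). In its second probe set, 223380_s_at, A375 lay above WM2664 without overlap, by 0.74 on the log2 scale. The order for YAP1 was not shared by its 3 probe sets, since in 213342_at A375 was above WM2664 by 0.46 on the log2 scale.

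**Figure D1:**
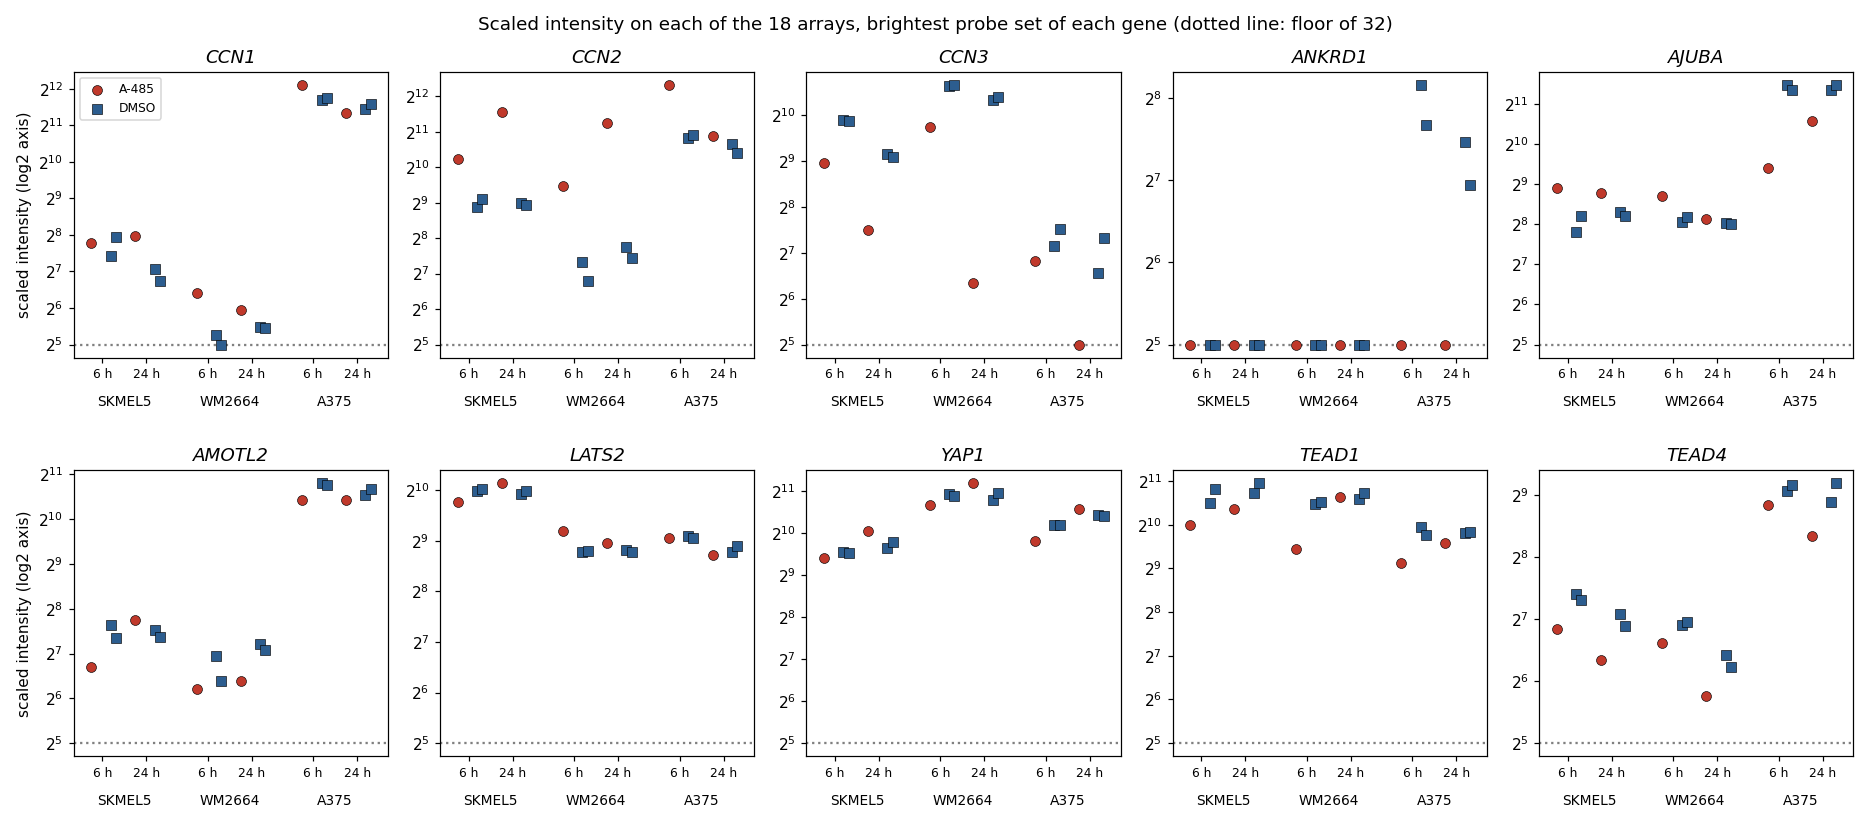
Scaled intensity (log2 axis) of the brightest probe set of each gene on each of the 18 arrays, by line and time; red circles are A-485 arrays, blue squares DMSO arrays, and the dotted line is the floor of 32. CCN2 lies above its DMSO pair in each of the 6 pairs of line and time, CCN3 below it in all 6, and ANKRD1 is off the floor on A375 DMSO arrays only.

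With A-485 the 3 CCN genes moved in different directions: CCN2 was higher in every line at both times, CCN3 was lower in every line at both times, and CCN1 differed by line and time. In SKMEL5, CCN2 read 1214 with A-485 at 6 h, against 475 and 550.0 in DMSO, and 3040 at 24 h, against 511 and 492. In WM2664 it read 708 with A-485 at 6 h, against 162 and 111 in DMSO, and 2456 at 24 h, against 216 and 175. In A375 it read 5137 with A-485 at 6 h, against 1823 and 1926 in DMSO, and 1905 at 24 h, against 1605 and 1359.9. All 6 A-485 arrays were above both DMSO arrays of their line and time, and the 24 h array of A375 was the closest to its pair.

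As differences of A-485 minus DMSO on the log2 scale, CCN2 gave 1.25 in SKMEL5, 2.40 in WM2664 and 1.46 in A375 at 6 h (SE 0.22 each), which are 2.38-, 5.28- and 2.74-fold. At 24 h it gave 2.60, 3.66 and 0.37 (SE 0.22), or 6.07-, 12.7- and 1.29-fold. The difference was thus larger at 24 h than at 6 h by 1.35 in SKMEL5 and 1.26 in WM2664, and smaller by 1.09 in A375. Over lines the mean was 1.70 ± 0.13 (SE) at 6 h and 2.21 ± 0.13 at 24 h. Leaving out the WM2664 A-485 array at 24 h gave a mean of 1.48 and leaving out that of A375 gave 3.13. Without the 3 DMSO arrays noted above, the WM2664 values were 2.67 at 6 h and 3.51 at 24 h.

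CCN3 was lower with A-485 throughout, and at the floor in A375 at 24 h. In SKMEL5 it read 495 with A-485 at 6 h, against 957 and 945 in DMSO, and 179.6 at 24 h, against 573 and 547. In WM2664 it read 852 with A-485 at 6 h, against 1592 and 1623 in DMSO, and 81 at 24 h, against 1287 and 1349. In A375 it read 112 with A-485 at 6 h, against 142 and 182 in DMSO, and was at the floor of 32 at 24 h, against 94 and 159. No A-485 array overlapped with its DMSO pair. The differences at 6 h were -0.94 in SKMEL5, -0.91 in WM2664 and -0.52 in A375 (SE 0.27 each). At 24 h they were -1.64 and -4.02 in SKMEL5 and WM2664, the second a 16.2-fold lower level, while A375 was at least 3.84-fold lower. The other probe set of CCN3, 204501_at, was also below both DMSO arrays in each line and time.

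CCN1 was not on 1 side of DMSO throughout. In SKMEL5 it read 221 with A-485 at 6 h, between its DMSO arrays of 171 and 248, and 252 at 24 h, against 133 and 107. In WM2664 it read 86 with A-485 at 6 h, against 38 and 32 in DMSO, and 62 at 24 h, against 45 and 44, all close to the floor. In A375, where it is bright, it read 4415 with A-485 at 6 h, against 3314 and 3417 in DMSO, and 2566 at 24 h, against 2772 and 3093. The A-485 array was thus above both DMSO arrays in WM2664 at both times, in SKMEL5 at 24 h and in A375 at 6 h, and below both in A375 at 24 h. The difference was 1.08 in SKMEL5 at 24 h, 0.39 in A375 at 6 h and -0.19 in A375 at 24 h (SE 0.22 each). The second probe set, 210764_s_at, gave 0.86, 0.57 and -0.17 for the same comparisons (SE 0.13). In SKMEL5 at 6 h the probe sets disagreed: 201289_at gave 0.10 and lay between its DMSO arrays, while 210764_s_at gave 0.48 and lay above both, so by the second probe set A-485 was above DMSO in all 3 lines at 6 h. In WM2664 its arrays lay at or next to the floor, above DMSO at 6 h and below at 24 h.

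The other CCN family members gave little signal. CCN4 and CCN5 were at the floor on all 18 arrays, and CCN6 was at the floor in SKMEL5 and WM2664 and close to it in A375.

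ANKRD1 could be followed in A375 only, where A-485 arrays were at the floor. It read 32 with A-485 at 6 h, against 285 and 204 in DMSO, and 32 at 24 h, against 176 and 122. The level was thus at least 7.54-fold lower with A-485 at 6 h and at least 4.58-fold lower at 24 h. Leaving out A375 DMSO 6 h replicate 1, which had signal in probe sets that mark SKMEL5, the 6 h difference was -2.67 on the log2 scale.

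AJUBA was lower with A-485 in A375 and higher in the lines where its DMSO level was low, though close to DMSO in WM2664 at 24 h. In A375 it read 673 with A-485 at 6 h, against 2839 and 2618 in DMSO, and 1517 at 24 h, against 2618 and 2808. In SKMEL5 it read 475 with A-485 at 6 h, against 223 and 294 in DMSO, and 440.4 at 24 h, against 315 and 293. In WM2664 it read 418 with A-485 at 6 h, against 264 and 289.7 in DMSO, and 280.2 at 24 h, against 260.4 and 256. The A375 arrays with A-485 lay below both DMSO arrays and those of the other 2 lines above, narrowly so in WM2664 at 24 h. The differences at 6 h were -2.02 in A375, 0.89 in SKMEL5 and 0.60 in WM2664, and at 24 h -0.84, 0.53 and 0.12 (SE 0.16 each). A second bright probe set, 1553764_a_at, gave -1.94, 0.84 and 0.64 at 6 h and -0.77, 0.55 and 0.07 at 24 h (SE 0.11). In WM2664 at 24 h its A-485 array lay between the DMSO arrays.

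AMOTL2 was below both DMSO arrays in all 3 lines at 6 h, by 0.79 in SKMEL5, 0.47 in WM2664 and 0.36 in A375 on the log2 scale (SE 0.22 each). It read 104 with A-485 in SKMEL5 at 6 h, against 199 and 163 in DMSO, 73 in WM2664, against 123 and 84, and 1368 in A375, against 1779 and 1732. At 24 h it read 214 in SKMEL5 with A-485, against 185 and 166 in DMSO, 84 in WM2664, against 149 and 136, and 1379.8 in A375, against 1492 and 1621. SKMEL5 was then above its DMSO pair and the other lines below theirs. The 6 h value in WM2664 was -0.19 without its DMSO array with signal in probe sets that mark SKMEL5, and -0.01 without scaling between arrays.

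LATS2, the kinase that phosphorylates YAP, was above DMSO in WM2664 and differed by probe set in the other lines. It read 873 with A-485 in SKMEL5 at 6 h, against 1008 and 1036 in DMSO, 583 in WM2664, against 437 and 444, and 532 in A375, between 544 and 529. At 24 h it read 1121 with A-485 in SKMEL5, against 964 and 1009 in DMSO, 493 in WM2664, against 449 and 438, and 421 in A375, against 436 and 475. WM2664 was above its DMSO pairs at both times, while SKMEL5 was below at 6 h and above at 24 h. The second probe set, 223380_s_at, agreed for WM2664 (0.45 at 6 h, 0.12 at 24 h, SE 0.16) but was below both DMSO arrays in SKMEL5 at both times (-0.40 and -0.32) and further below in A375 at 24 h (-0.49, against -0.11 in the brightest). The 6 h value of SKMEL5 in the brightest probe set was -0.23 and turned to 0.11 without scaling between arrays, where the median of all probe sets stood at 0.32.

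YAP1 changed side with time: its A-485 arrays were below both DMSO arrays at 6 h and above both at 24 h in every line. At 6 h it read 675 with A-485 in SKMEL5, against 751 and 738 in DMSO, 1619 in WM2664, against 1954 and 1883, and 899.7 in A375, against 1175 and 1164. At 24 h it read 1068 with A-485 in SKMEL5, against 805 and 888 in DMSO, 2329 in WM2664, against 1763 and 1988, and 1527 in A375, against 1376 and 1350.4. The mean over lines was -0.25 ± 0.06 (SE) at 6 h and 0.27 ± 0.06 at 24 h, and the other 2 probe sets gave -0.36 and -0.23 at 6 h and 0.26 and 0.39 at 24 h. Without scaling between arrays the 6 h side flipped in SKMEL5 (0.19) and WM2664 (0.15). On that scale the median of all probe sets itself stood at 0.32 in SKMEL5, 0.45 in WM2664 and 0.05 in A375 at 6 h, so YAP1 remained below the median in all 3 lines.

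TEAD1, the most widely used YAP partner of the family, was lower at 6 h in every line and closer to DMSO at 24 h. At 6 h it read 1013 with A-485 in SKMEL5, against 1451 and 1818 in DMSO, 692 in WM2664, against 1422 and 1481, and 560.5 in A375, against 981 and 865. At 24 h it read 1323 with A-485 in SKMEL5, against 1705 and 1973 in DMSO, 1601 in WM2664, between 1530.3 and 1692, and 763 in A375, against 892 and 919. The 6 h differences were -0.68, -1.07 and -0.72 (SE 0.15 each) and those at 24 h -0.47, -0.01 and -0.25, with means over lines of -0.82 ± 0.09 and -0.24 ± 0.09. The other 2 probe sets gave means of -0.75 and -0.83 at 6 h and -0.20 and -0.27 at 24 h.

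TEAD4 was lower with A-485 in every line at both times by its brighter probe set, 41037_at. At 6 h it read 115 with A-485 in SKMEL5, against 170.0 and 159 in DMSO, 98 in WM2664, against 119.7 and 124, and 457 in A375, against 537 and 571. At 24 h it read 81 with A-485 in SKMEL5, against 135 and 118 in DMSO, 54 in WM2664, against 86 and 75, and 324 in A375, against 473 and 584. The mean over lines was -0.37 ± 0.09 (SE) at 6 h and -0.64 ± 0.09 at 24 h. The dimmer probe set, 204281_at, did not share this, with means of 0.03 and -0.15 and an SE of 0.32. Without scaling, 41037_at in WM2664 at 6 h turned to 0.16, where the median of all probe sets stood at 0.45.

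**Figure D2:**
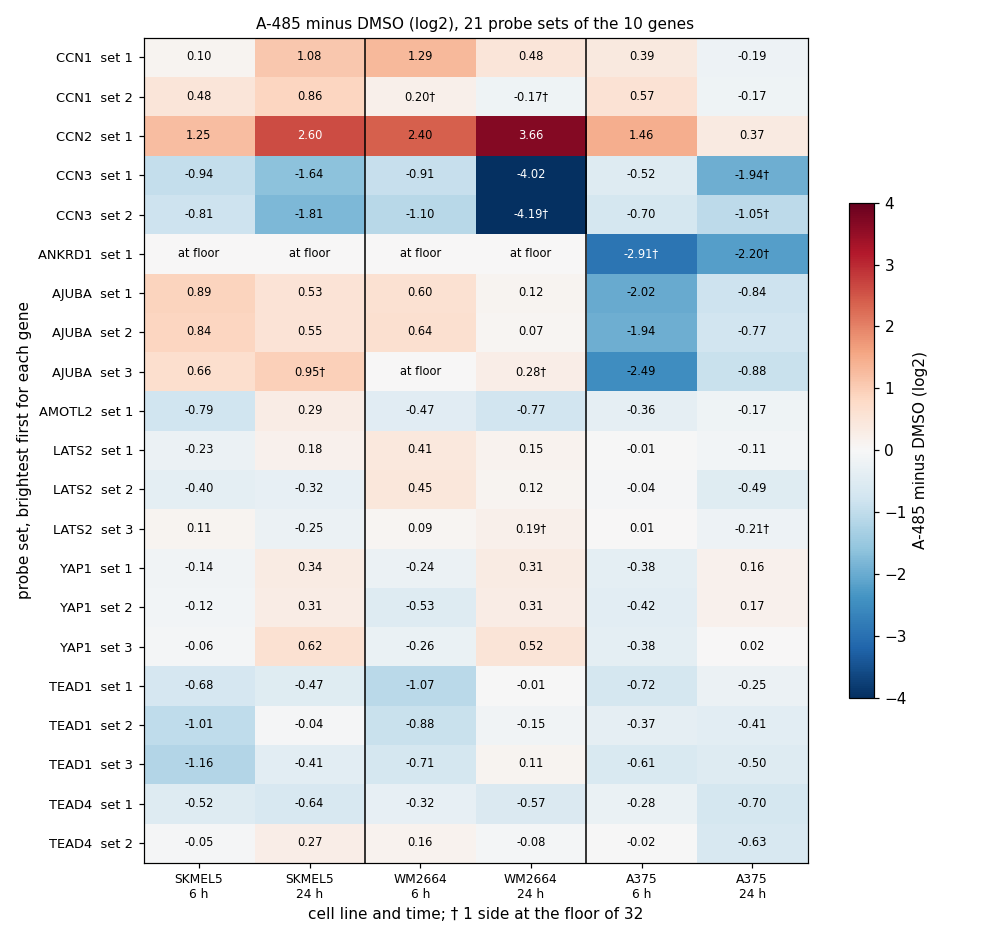
A-485 minus DMSO (log2, colour and number) for the 21 fitted probe sets of the 10 genes in each line and time; set 1 is the brightest probe set of a gene, a dagger marks a comparison with 1 side at the floor, and the cells named at floor have both sides there. The CCN2 row is positive and the CCN3 rows negative throughout, and AJUBA is negative in A375 and positive in SKMEL5.

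For scale, the limma fit over all probe sets put 12 of the 21 member probe sets past an adjusted p of 0.05 in SKMEL5 at 6 h, 10 in WM2664 and 7 in A375, against 17.6%, 22.1% and 8.94% of all 26385 probe sets tested. At 24 h the counts were 11, 8 and 7, against 31.0%, 28.3% and 13.0%. On the mean over lines they were 15 at 6 h, against 34.5%, and 9 at 24 h, against 43.3%. The genes were picked on these differences, so nothing is read from the counts. Over all probe sets, 4975 were higher and 4129 lower on the mean over lines at 6 h, while without scaling between arrays it was 7915 higher and 1330 lower of 26425, with a median over all probe sets of 0.27 against 0.03 with scaling.

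Time in DMSO was not used to pick the genes, and it was tested. DMSO cultures at 24 h were compared with those at 6 h, 2 arrays against 2 in each line, with limma's adjusted p over all probe sets. In SKMEL5, 3 of the 21 member probe sets were lower at 24 h and none higher, where 6.22% of all probe sets passed, 2.98% higher and 3.24% lower. CCN1 (201289_at) read 133 and 107 at 24 h, against 171 and 248 at 6 h, a difference of -0.79 ± 0.18 (SE, adjusted p = 0.0449). CCN3 (204501_at) read 251 and 283 at 24 h, against 451 and 457 at 6 h, a difference of -0.77 ± 0.16 (adjusted p = 0.0346). The brightest probe set of CCN3, 214321_at, gave -0.76 and did not pass (adjusted p = 0.0785), nor did the second of CCN1 (-0.30, adjusted p = 0.124). The dimmest probe set of YAP1, 213342_at, fell by 0.45 ± 0.08 (adjusted p = 0.0207), while its 2 brighter probe sets gave 0.18 and 0.25 and did not pass.

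None passed in WM2664, where 0.713% of probe sets did, or in A375, where 1.03% did, and in each of these lines 5 of 21 had an unadjusted p under 0.05 in the same limma test, as had 15.1% of all probe sets in WM2664 and 14.1% in A375. On the mean over lines 3 passed, all lower at 24 h, where 9.66% of all probe sets passed, 4.81% higher and 4.85% lower: CCN3 by -0.53 ± 0.09 (204501_at, adjusted p = 0.0168), YAP1 by -0.30 ± 0.05 (213342_at, adjusted p = 0.0119) and TEAD4 by -0.35 ± 0.07 (41037_at, adjusted p = 0.0231). On this mean 214321_at of CCN3 gave -0.48 (adjusted p = 0.05001, just over the threshold), the second probe set of TEAD4 -0.55 (adjusted p = 0.210), and the 2 brighter ones of YAP1 0.12 and 0.14, and none of these passed. CCN2 did not pass, with 0.05 ± 0.11 (adjusted p = 0.779). All these calls were lost without scaling between arrays and without the 3 DMSO arrays noted above, while the differences changed little. Without the 3 arrays those in SKMEL5 were -0.79, -0.77 and -0.45, as with them, and the means were -0.56 for CCN3, -0.33 for YAP1 and -0.35 for TEAD4, and without scaling they were -0.70, -0.68 and -0.35 in SKMEL5 and -0.50, -0.29 and -0.32 on the mean. In SKMEL5 the calls of CCN1 and CCN3 also ended on leaving out any 1 of 10 DMSO arrays. For CCN1 these are all but replicate 1 of SKMEL5 at each time, with -0.52 (adjusted p = 0.150) without replicate 2 at 6 h and -0.63 (adjusted p = 0.188) without replicate 2 at 24 h. For CCN3 these are all but the 2 of A375 at 24 h, with adjusted p up to 0.136. YAP1 in SKMEL5 ended without either SKMEL5 DMSO array of 6 h or replicate 2 of 24 h (adjusted p = 0.0803 to 0.0884), and TEAD4 without replicate 1 of SKMEL5 or replicate 2 of WM2664 or A375 at 6 h (adjusted p = 0.0562 to 0.0626). Keeping all dim probe sets ended the calls of CCN1 and CCN3 in SKMEL5 and of TEAD4.

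**Figure D3:**
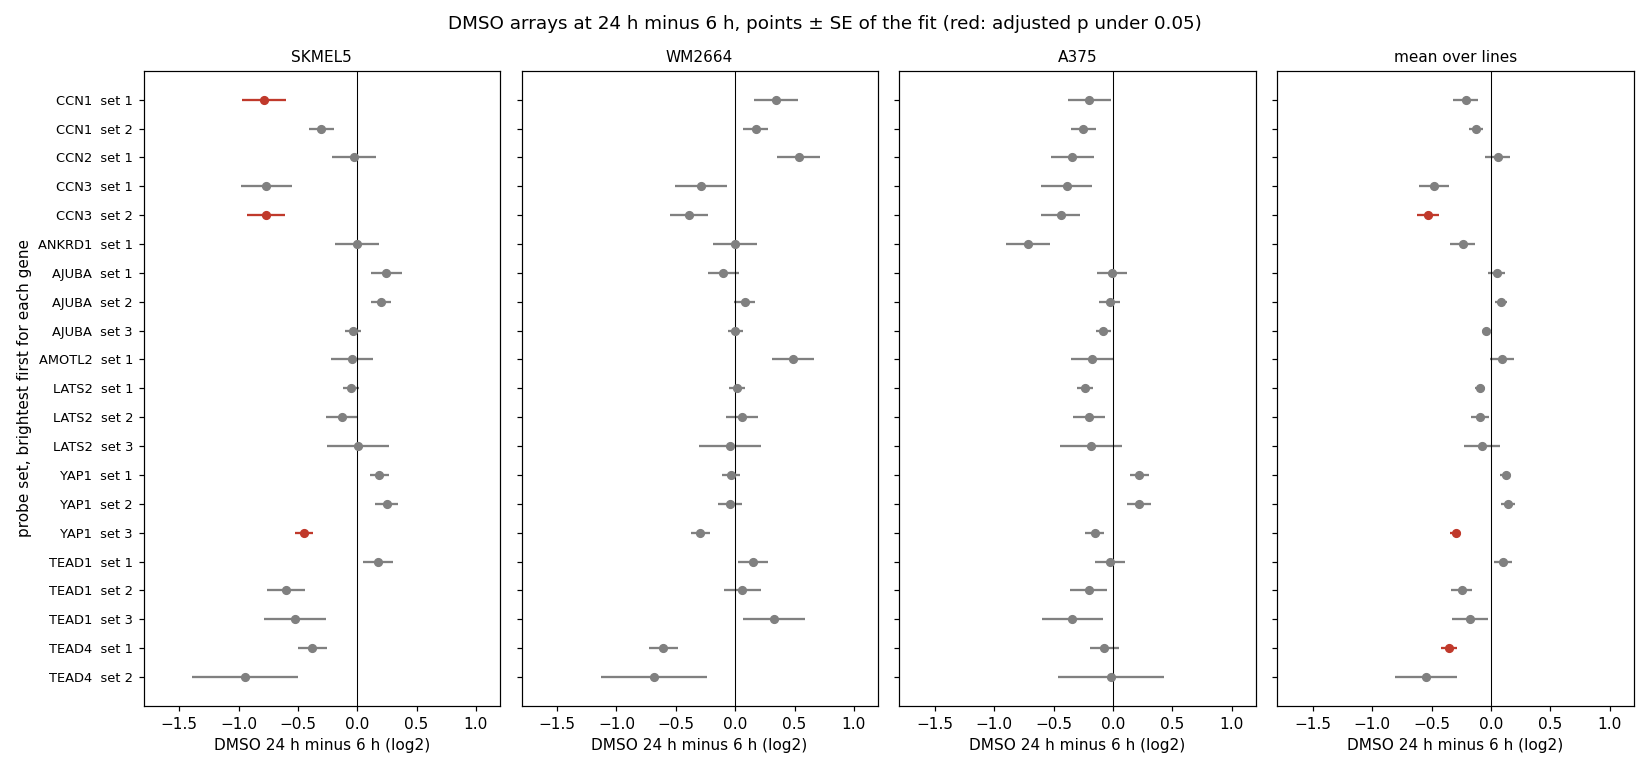
DMSO arrays at 24 h minus 6 h (log2, horizontal axis) for the 21 fitted probe sets, in each line and on the mean over lines; points are fitted differences, bars their SE, and red marks an adjusted p under 0.05. In SKMEL5, CCN1 set 1, CCN3 set 2 and YAP1 set 3 are red and to the left of 0.

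Other YAP-TEAD target genes were read from a list of 20 that leaves out the 10 genes above. Of the 20, 18 are on the array and 16 were tested. This list and the lists below were chosen with earlier results of these data known. Their counts and p-values are thus descriptions and not independent support. With A-485, 8 of the 16 were lower and none higher on the mean over lines at 6 h, and 10 were lower and 2 higher at 24 h. Of all probe sets, 18.9% were higher and 15.6% lower at 6 h, and 23.5% and 19.8% at 24 h. The list median was -0.25 at 6 h, against 0.03 for all probe sets tested, and -0.30 at 24 h, against 0.03. In A375, 10 were lower and none higher at 6 h, and 11 were lower and none higher at 24 h, with medians of -0.52 and -1.02, where 3.18% and 6.05% of all probe sets were higher and 5.76% and 6.95% lower. In SKMEL5 it was 2 higher and 4 lower at 6 h, where 8.83% and 8.82% of all probe sets were higher and lower, and 4 higher and 4 lower at 24 h (16.7% and 14.3%). In WM2664 it was 2 higher and 5 lower at 6 h (11.5% and 10.5%), and 3 higher and 6 lower at 24 h (14.9% and 13.4%). With scaling but without the 3 DMSO arrays noted above, WM2664 and A375 at 6 h each kept 1 DMSO array. Fewer of the 16 then passed at 6 h in both lines. Without scaling between arrays, 5 were lower and none higher at 6 h and 6 were lower and none higher at 24 h on the mean over lines. The 24 h counts were then 2 lower and none higher in SKMEL5, 2 higher and 1 lower in WM2664 and 8 lower and none higher in A375. Those at 6 h were 1 higher and 2 lower in SKMEL5, 2 higher and 3 lower in WM2664 and 4 lower in A375. Without scaling, the median of all probe sets was 0.27 at 6 h and 0.07 at 24 h on the mean over lines. In SKMEL5, WM2664 and A375 it was 0.32, 0.45 and 0.05 at 6 h, and 0.00, 0.25 and 0.00 at 24 h. The unscaled shares of all probe sets by line and at 24 h are not given here, so nothing is read from the unscaled counts. No difference between lines was tested.

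FJX1, the human relative of the fly gene four-jointed of the Fat pathway, fell by 1.85 ± 0.04 (SE) on the mean over lines at 6 h (adjusted p = 3.23e-07) and by 1.36 ± 0.04 at 24 h (adjusted p = 7.65e-07). It read 86, 87 and 245 with A-485 at 6 h in SKMEL5, WM2664 and A375, against 330.4 and 322, 223 and 219, and 1184 and 1186 in DMSO. The lower level was seen in all 3 lines at both times.
IGFBP3, a binding protein of insulin-like growth factors, fell by 0.77 ± 0.04 at 6 h (adjusted p = 1.17e-05) and by 1.91 ± 0.04 at 24 h (adjusted p = 2.24e-07). In A375 at 24 h it read 35 with A-485, close to the floor, against 565 and 567 in DMSO, and without that A-485 array the 24 h mean was -0.86.

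THBS1, a matrix glycoprotein, fell by 1.17 ± 0.05 at 6 h (adjusted p = 3.33e-06), and TGFB2, a TGF-beta ligand, by 1.05 ± 0.16 at 6 h (adjusted p = 0.00142) and by 1.36 ± 0.16 at 24 h (adjusted p = 0.000281). The 6 h call of TGFB2 ended without the WM2664 A-485 array (-0.55, adjusted p = 0.0796) and with the deposited values floored at 1 (-0.71, adjusted p = 0.0514). PTPN14, a phosphatase that binds YAP, rose by 0.40 ± 0.07 at 24 h (adjusted p = 0.00316), a call that ended without the SKMEL5 A-485 array (0.21, adjusted p = 0.125) and without scaling (0.48, adjusted p = 0.0510).

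Of 28 genes of the Hippo machinery other than LATS2, YAP1, TEAD1, TEAD4, AJUBA and AMOTL2, 27 are on the array and 24 were tested. On the mean over lines at 6 h, 6 were higher and 7 lower, where 18.9% and 15.6% of all probe sets were higher and lower, with a median of -0.02 against 0.03 for all probe sets. At 24 h 10 were higher and 5 lower, where 23.5% and 19.8% of all probe sets were, with a median of 0.09 against 0.03. Without scaling between arrays it was 10 higher and 3 lower at 6 h, and 4 higher and 2 lower at 24 h. The median of all probe sets was then 0.27 at 6 h and 0.07 at 24 h, and most probe sets called at 6 h were higher. WWTR1, which encodes the YAP relative TAZ, read 1902 with A-485 in SKMEL5 at 6 h, against 3663 and 3578 in DMSO, 1537 in WM2664, against 3208 and 3148, and 1233 in A375, against 2644 and 2517. It fell by 1.01 ± 0.04 on the mean over lines (adjusted p = 2.06e-06). At 24 h the mean was -0.07 (adjusted p = 0.193), with 0.01 in SKMEL5, 0.22 in WM2664 and -0.45 in A375. WWTR1 and TEAD1 were thus both lower in every line at 6 h and nearer to DMSO at 24 h.

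AMOT, which like AMOTL2 binds YAP at junctions, fell by 1.14 ± 0.07 at 6 h (adjusted p = 1.28e-05) and by 1.44 ± 0.07 at 24 h (adjusted p = 2.85e-06), from SKMEL5 and WM2664 alone, since A375 was at or next to the floor. The 6 h call of AMOT ended with the deposited values floored at 1 (-0.64, adjusted p = 0.271). FRMD6, an upstream scaffold, fell by 0.93 ± 0.05 at 6 h (adjusted p = 6.47e-06) and by 0.62 ± 0.05 at 24 h (adjusted p = 3.48e-05). The kinase genes TAOK1 and TAOK2 rose at 24 h, by 0.64 ± 0.09 (adjusted p = 0.000911) and 0.61 ± 0.15 (adjusted p = 0.0103). TAOK2 also rose at 6 h, by 0.55 ± 0.15 (adjusted p = 0.0211), and this call ended with the replicate number as a block (0.48, adjusted p = 0.0547) and without the WM2664 A-485 array (0.39, adjusted p = 0.168). It also ended without the 3 DMSO arrays noted above (0.52, adjusted p = 0.1003), as did the 24 h call (0.54, adjusted p = 0.0700), and the 24 h call ended without the SKMEL5 (0.47, adjusted p = 0.0852) or the WM2664 (0.49, adjusted p = 0.0709) A-485 array. Of the other TEAD genes, TEAD2 did not pass at either time (-0.24 at 6 h, adjusted p = 0.384, and 0.01 at 24 h, adjusted p = 0.977), and TEAD3, dim in all lines, rose by 0.34 ± 0.07 at 24 h (adjusted p = 0.00596).

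**Figure D4:**
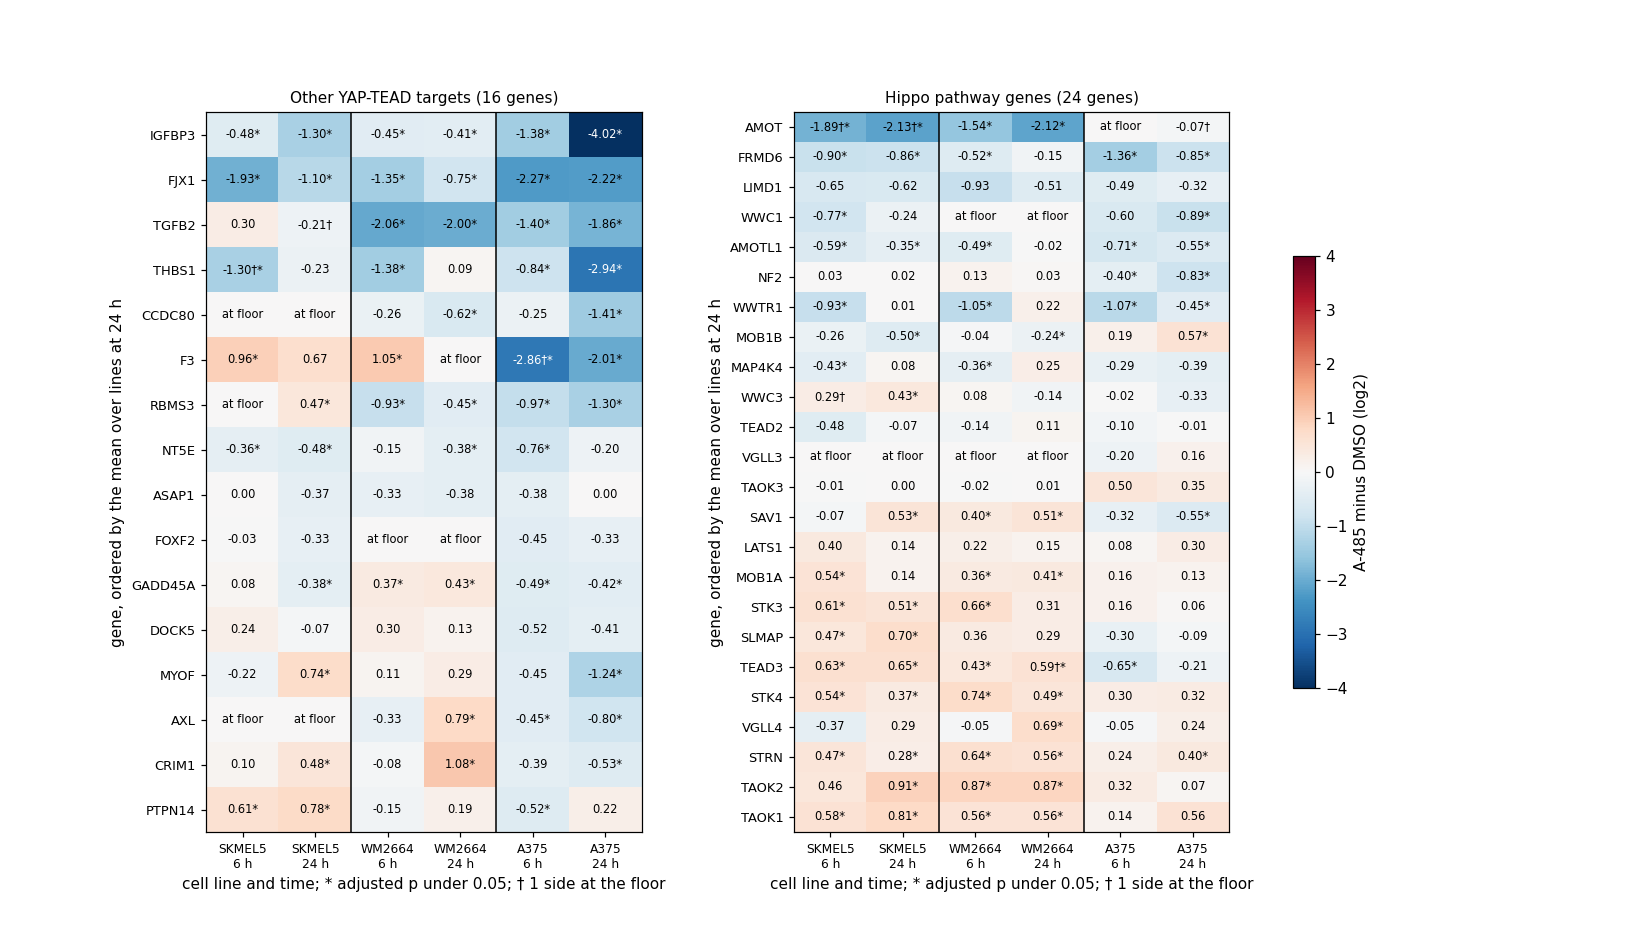
A-485 minus DMSO (log2, colour and number) in each line and time for the 16 tested YAP-TEAD targets outside the 10 genes and for the 24 tested Hippo genes; genes run by their mean over lines at 24 h, an asterisk marks an adjusted p under 0.05 and a dagger 1 side at the floor. IGFBP3 and FJX1 are negative in all 6 columns, and WWTR1 is near -1 in the 6 h columns.

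Actin and serum response factor target genes, which share inputs with YAP, were taken as a list of 20, with 17 on the array and 14 tested. On the mean over lines 1 was higher and 4 lower at 6 h, where 18.9% and 15.6% of all probe sets were, and none higher and 7 lower at 24 h, where 23.5% and 19.8% were. The median was -0.05 at 6 h and -0.21 at 24 h, against 0.03 for all probe sets at each time. Without scaling between arrays it was 3 higher and 1 lower at 6 h, and 3 lower at 24 h. The median of all probe sets was then 0.27 at 6 h and 0.07 at 24 h, and most probe sets called at 6 h were higher. FHL2, a LIM protein, fell by 1.43 ± 0.05 at 6 h (adjusted p = 7.00e-07) and by 1.29 ± 0.05 at 24 h (adjusted p = 9.67e-07). TAGLN2, an actin-binding protein of the calponin family, fell by 0.78 ± 0.05 at 24 h (adjusted p = 1.24e-05). The factor SRF itself rose by 0.51 ± 0.12 at 6 h (adjusted p = 0.0123), a call that ended without the SKMEL5 A-485 array (0.34, adjusted p = 0.129) and without the 3 DMSO arrays noted above (0.46, adjusted p = 0.108). At 6 h TPM1 and CNN3, which encode a tropomyosin and a calponin, gave -0.25 each (adjusted p = 0.0128 and 0.00569), and both calls ended without scaling, where TPM1 turned to 0.019 and CNN3 stood at -0.01. TPM1 gave -0.46 at 24 h (adjusted p = 0.000456), which was -0.02 (adjusted p = 0.828) without the A375 A-485 array. This 24 h call also ended without scaling (-0.38). CNN2, a further calponin, gave -0.52 ± 0.14 at 24 h (adjusted p = 0.0203), and that call ended without the WM2664 A-485 array (-0.32, adjusted p = 0.213) and without the 3 DMSO arrays noted above (-0.53, adjusted p = 0.120).

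Receptors for CCN proteins were taken as 13 genes, with 12 on the array and 9 tested. None was higher and 5 were lower on the mean over lines at 6 h, and 2 were higher and 4 lower at 24 h, beside the same shares of all probe sets. The medians were -0.28 and -0.22, against 0.03 for all probe sets at each time. The 6 h calls were all lost without scaling between arrays, and at 24 h it was then 1 higher and 3 lower. The median of all probe sets without scaling was 0.27 at 6 h and 0.07 at 24 h. ITGA6, an integrin subunit that binds CCN1 and CCN2, fell by 0.44 ± 0.05 at 6 h (adjusted p = 0.000317) and by 0.52 ± 0.05 at 24 h (adjusted p = 9.01e-05). The proteoglycan SDC4 fell by 0.65 ± 0.09 at 24 h (adjusted p = 0.000774) and NOTCH1, a receptor that CCN3 binds, by 0.71 ± 0.07 (adjusted p = 0.000162), which did not pass with a floor of 16 (-0.66, adjusted p = 0.0657). NOTCH1 at 6 h was -0.47 ± 0.07 (adjusted p = 0.0019), a call that ended without the WM2664 A-485 array (-0.13, adjusted p = 0.376). ITGB3, a vitronectin receptor subunit, fell by 0.54 ± 0.09 at 6 h (adjusted p = 0.00285), and the Wnt coreceptor LRP6 rose by 0.39 ± 0.05 at 24 h (adjusted p = 0.000315).

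Likeness of pattern was measured as Pearson's r over the 12 means of line, time and treatment, after taking out the mean of each line, so that level differences between lines do not count. It is a description over arrays that share scaling, without a p. Among 3973 genes with a range of at least 1 on the log2 scale, those most like CCN2 were ZBTB11-AS1 (0.97), ZNF226 (0.97), PPP1R16A (0.96), TAOK2 (0.96) and LMLN (0.95). Those most like CCN1 were PIP5K1A (0.93), CEP164 (0.89), BRD2 (0.89), BAK1 (0.89) and SLC67A2 (0.87). Several had arrays near the floor: ZBTB11-AS1 and PPP1R16A in SKMEL5 and WM2664, TAOK2 and SLC67A2 in WM2664 and A375. So did LMLN in A375 and BAK1 in SKMEL5. None of the other 9 genes was among those named as most like CCN2. Genes with a smaller range, YAP1 and LATS2 among them, could not enter, so nothing is read from this. Between the 10 genes, r was 0.74 for CCN1 with CCN2, -0.78 for CCN2 with CCN3, 0.91 for CCN3 with TEAD4 and 0.74 for AJUBA with ANKRD1. The last value rests on A375 alone, since ANKRD1 was off the floor only on A375 DMSO arrays. Next in size were -0.71 for CCN1 with TEAD1, -0.71 for CCN2 with TEAD4 and 0.69 for CCN1 with LATS2.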

How the data were processed

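RNA of 18 samples was read on Affymetrix HG-U133 Plus 2.0 arrays, labelled from total RNA with a 3′ amplification kit per the labels. The authors deposited a table of intensity values, 1 for each probe set in each sample, that are linear and reach below 0; the software behind them is not given in the sources used here. From these, intensities were quantile normalized between arrays, floored at 32 and turned to log2. Probe sets with a mean log2 of at least 5.2 were kept (26385 of 54613) and fitted with limma 3.58.1 in R 4.3.3, as means of 12 groups with 6 residual degrees of freedom shared by all lines. P-values were adjusted by the Benjamini-Hochberg method within a contrast, and a call is an adjusted p under 0.05. The fit was checked on simulated data.

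Probe sets were named from the platform annotation, updated through Entrez IDs to RefSeq symbols: 41091 have 1 symbol, of which 41037 were matched by ID, 1801 have several and 11721 have none listed. The 10 genes and the gene lists were chosen with earlier results of these data known. Named genes are all probe sets of the 10, up to 4 called genes of each list and time with the largest mean difference, at least 1 in each direction, the other TEAD and CCN genes and WWTR1 by name, and the 5 genes most like CCN2 and CCN1. The difference of DMSO replicate 1 minus 2 correlated between 6 h and 24 h at 0.01 in SKMEL5, -0.02 in WM2664 and 0.00 in A375. Replicate numbers thus did not link DMSO samples across times. Every A-485 array is labelled replicate 1, and whether it pairs with DMSO replicate 1 of its time could not be checked. Alternatives were other scaling, floors and filters, a replicate block and leaving out each array. DMSO arrays with signal in probe sets that mark another line were also left out. Leaving out all 3 of these was chosen after seeing the data.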

Additional observations from a re-analysis of the deposited data

Results flagged for a closer look

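Each value here is the distance between A-485 minus DMSO (log2) in 2 lines where the A-485 array lay above both DMSO arrays in the line named first and below both in the line named second. With 1 A-485 array in each, the difference was not tested.

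AJUBA differed by 2.91 at 6 h and by 1.37 at 24 h between SKMEL5 and A375. CCN1 differed by 1.27 at 24 h between SKMEL5 and A375. AMOTL2 differed by 1.05 at 24 h between SKMEL5 and WM2664. LATS2 differed by 0.63 at 6 h between WM2664 and SKMEL5, where the SKMEL5 side flips without scaling between arrays, and by 0.30 at 24 h between SKMEL5 and A375. The 24 h value of LATS2 rests on its brightest probe set, since the second was below both DMSO arrays in both lines (-0.32 in SKMEL5 and -0.49 in A375).

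Among the genes of the other lists, THBS1 differed by 3.02 at 24 h between WM2664 and A375, and TGFB2 by 2.36 at 6 h between SKMEL5, where it is next to the floor, and WM2664. WWTR1 differed by 0.67 at 24 h between WM2664 and A375, and PTPN14 by 1.13 at 6 h between SKMEL5 and A375. TPM1 differed by 0.54 at 6 h and 1.59 at 24 h, CNN2 by 0.71 at 6 h and CNN3 by 1.51 at 24 h, all between SKMEL5 and A375. ITGB3 differed by 0.79 at 24 h between SKMEL5 and WM2664, and LRP6 by 0.60 at 6 h between A375 and SKMEL5.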

How the results depend on the processing

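Counts below are genes past the threshold on the mean over lines, in either direction, and the cause of a move was not tested. The share of all probe sets past the threshold under each setting is not given beside them, so nothing is read from the moves. Without scaling between arrays, YAP-TEAD targets numbered 5 in place of 8 at 6 h and 6 in place of 12 at 24 h, Hippo genes 6 in place of 15 at 24 h, and actin and SRF targets 3 in place of 7 at 24 h. CCN2 at 6 h was then 1.94 in place of 1.70, as also with the deposited values floored at 1. With that floor, YAP-TEAD targets numbered 4 at both times, Hippo genes 4 at 24 h, and actin and SRF targets 3 at 6 h and 2 at 24 h. A value of the 10 genes was counted as changing sign only if it exceeded the pooled SD of the DMSO pairs. Values counted under both settings were those at 6 h of LATS2 in SKMEL5 (0.11), YAP1 in SKMEL5 (0.19) and WM2664 (0.15), TEAD4 in WM2664 (0.16) and TPM1 on the mean over lines (0.019). Below that SD, TEAD1 in WM2664 at 24 h went from -0.01 to 0.28 without scaling, and LATS2 in A375 at 6 h from -0.01 to 0.05. Actin and SRF targets at 6 h numbered 5. They were 3 without the 2 DMSO arrays with signal in probe sets that mark SKMEL5, and 2 without all 3 arrays noted above. The 3 member probe sets called for time in DMSO were 0 under each of these 4 settings and 5 with a floor of 64.

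Leaving out 1 array at a time gave 7 to 11 YAP-TEAD targets at 6 h and 9 to 12 at 24 h, 10 to 15 Hippo genes at each time, and 3 to 6 actin and SRF targets at 6 h, the 3 without the WM2664 A-485 array, and 6 to 8 at 24 h. CCN2 ranged from 1.35 to 1.93 at 6 h and from 1.48 to 3.13 at 24 h, and 2 to 4 member probe sets were called for time in DMSO. The replicate number was also used as a block, although pairing within a time could not be checked. YAP-TEAD targets then numbered 7 at 6 h and 10 at 24 h, and CCN2 gave 1.63 and 2.14. The block ended the calls of TAOK2 at 6 h, CNN2 at 24 h (-0.48, adjusted p = 0.0534) and CCN1 for time in SKMEL5 DMSO (-0.79, adjusted p = 0.0691), each by limma. With a floor of 1 the calls of CNN2, LRP6, NOTCH1, PTPN14 and TPM1 at 24 h were lost too. A single A-485 array in each group and signals near the floor limit CCN1 in WM2664 and ANKRD1, CCN3 at 24 h in A375, and TEAD3.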
